A study of Mus musculus with 24 samples.

Results

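The subunits of the oxidative phosphorylation system that are encoded in the nucleus were followed through the livers and embryos of mice whose grandfathers were either control or obese. Members were taken by gene symbol alone, as every probe set naming 1 gene of the Nduf families a, b, c, s and v, Sdha to Sdhd, the Uqcr family, Cox4 to Cox8 and the Atp5 family. The rule found 84 genes among the 19505 named on the array: 35 of complex I, 4 of complex II, 8 of complex III, 20 of complex IV and 17 of complex V. Ndufa4 and its relative Ndufa4l2 were counted with complex IV, where the Ndufa4 protein works. Ndufab1 of complex I and Cyc1 of complex III lie outside the rule, and the subunits encoded in mitochondrial DNA were not analysed here.

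The study hybridised 24 microarrays, 1 for each sample, with total RNA from ICR-CD1 mice, an outbred strain. Samples were labelled as whole embryo at embryonic day 7.5 (ED7.5), whole embryo at embryonic day 14.5 (ED14.5) or liver at postnatal day 7.5 (PD7.5). At each age 4 samples descended from control grandfathers and 4 from obese grandfathers, which the labels call SL without spelling it out. Tissue was collected after CO2 euthanasia and frozen in liquid nitrogen. No group carries a transgene or a drug treatment in the labels, and neither sex nor litter is given, so the p-values below measure only the spread between these samples. Values are log2 probe set intensities, a difference of 1 is a doubling, and each gene is represented by its brightest probe set. A difference was called when limma's moderated test gave an adjusted p under 0.05 over all 19505 genes.

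Oxidative phosphorylation turns the energy of food into ATP at the inner mitochondrial membrane. Complex I takes electrons from NADH and complex II, which is also an enzyme of the citric acid cycle, takes them from succinate. Ubiquinone carries both streams to complex III, cytochrome c carries them on to complex IV, and complex IV hands them to oxygen. Complexes I, III and IV pump protons as they work, and complex V, the ATP synthase, lets the protons flow back through a rotor to make ATP. Most subunits are made in the cytoplasm from nuclear genes and imported, and several complex IV subunits exist as alternative isoforms used by heart and muscle, lung or testis. Liver depends on this system after birth, when suckling brings a diet rich in fat.

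Cell type markers were checked first, because they bear on every comparison across age. The ED14.5 arrays carried the labels of a whole embryo, but all 7 hepatocyte markers lay above background on each of them, with array means of 12.74 to 12.85. On the same arrays 5 of 5 erythroid markers were above background (array means 11.89 to 12.09), while 12 to 13 of 14 heart and skeletal muscle markers and 4 of 6 neuron markers were above background on no array of a group. The ED7.5 arrays were high in decidua markers (11.11 to 11.31), markers of the maternal tissue around the implanted embryo, which read 4.61 to 5.46 on the other arrays. The PD7.5 liver arrays held hepatocyte markers at 13.43 to 13.51, erythroid markers at 8.07 to 10.15 and Kupffer cell markers at 8.89 to 9.40. Age and tissue make-up therefore cannot be told apart here, and in bulk tissue fewer cells of a type and less RNA per cell cannot be told apart either. Background was set in each array at the level under which 75% of its intron control probe sets lay, 5.05 to 6.53, and 48.3% to 64.1% of named genes lay above it. ED7.5 control replicate 2 and ED14.5 control replicate 1 had the highest backgrounds, 6.53 and 6.51.

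Subunit transcripts were abundant and steady. Of the 84 members, 75 lay above background on all 24 arrays, against 7772 of the 19505 named genes. These were 34 of 35 members of complex I, 4 of 4 of complex II, 8 of 8 of complex III, 17 of 17 of complex V and 12 of 20 of complex IV. The members outside this set were Ndufa7 and 8 isoform genes of complex IV. The span of a gene, its highest group mean minus its lowest over the 6 groups, had a median of 0.51 over the 75 members and 1.01 over the 7772 genes. A span under 1 was found for 71 of the 75 members (94.7%), against 49.7% of the 7772 genes. The 7772 genes were not matched to the members in intensity, and the part of intensity in this difference was not tested. Complex V had the smallest median span of the complexes, 0.37, and complex I, complex II, complex III and complex IV had medians of 0.60, 0.59, 0.51 and 0.58. Atp5a1, which encodes the alpha subunit of the F1 head, had the smallest span of all 7772 genes, 0.064. It read 12.26 to 12.35 and 12.27 to 12.44 in the control and SL arrays at ED7.5, 12.24 to 12.36 and 12.25 to 12.27 at ED14.5, and 12.25 to 12.41 and 12.28 to 12.37 in liver. Its partner Atp5b, the catalytic beta subunit, spanned 0.11. Atp5a1 and Atp5b were singled out after their values were seen.

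**Figure D1:**
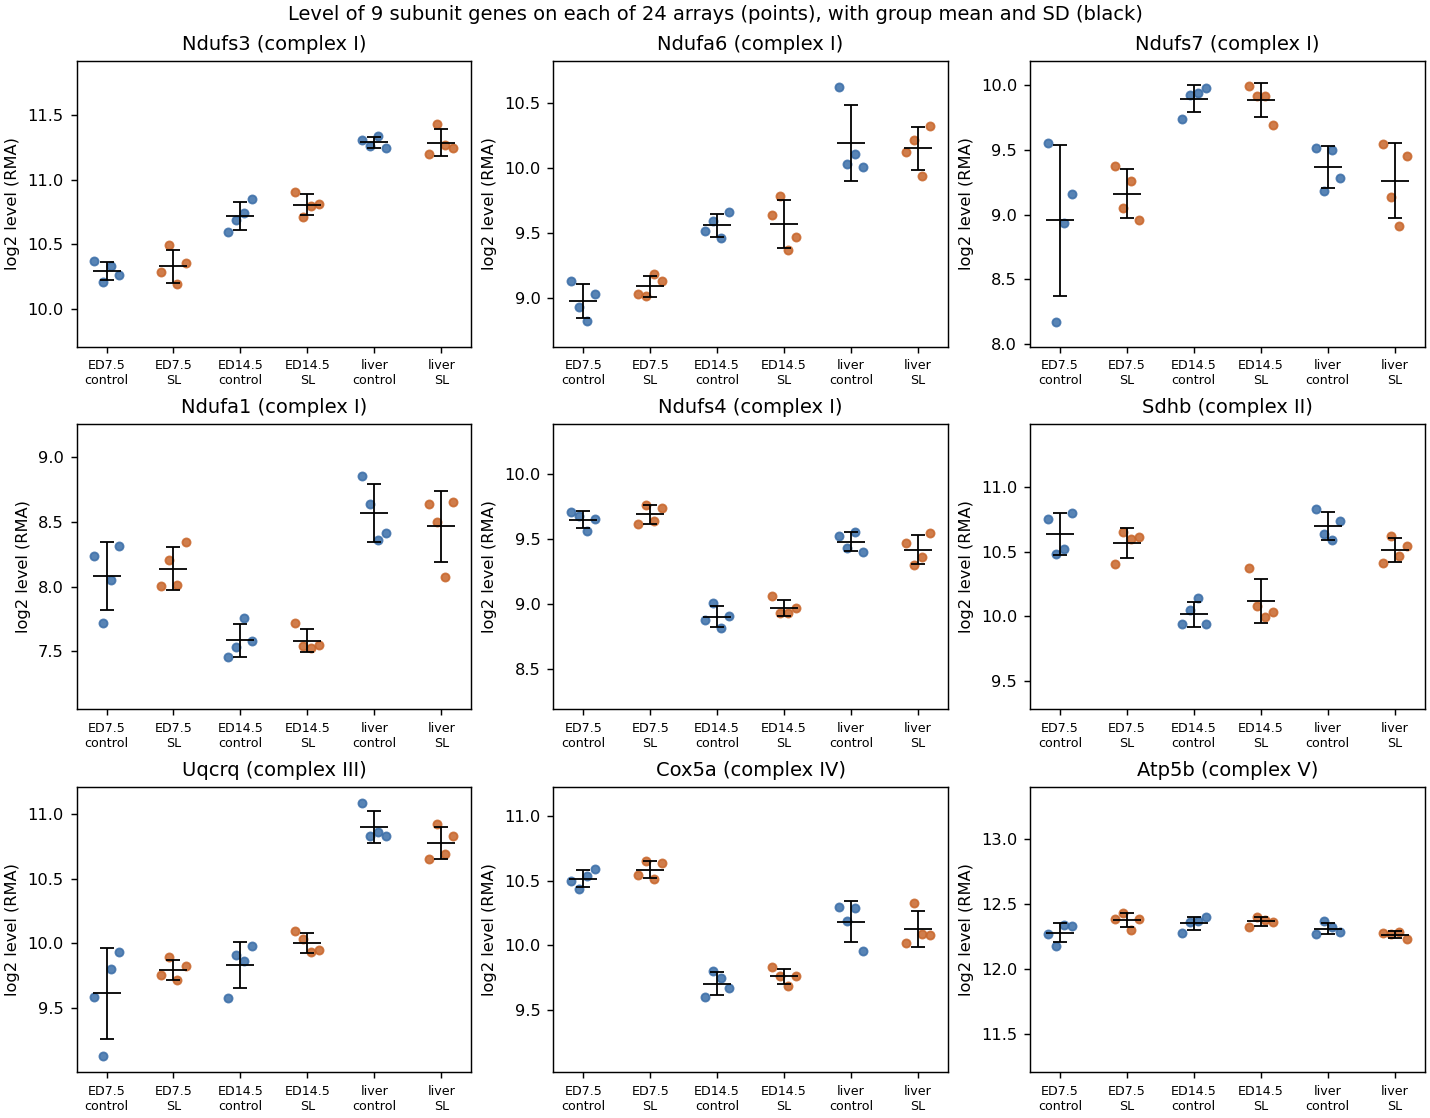
Log2 intensity of 9 members on every array, with the 6 groups along the horizontal axis (control and SL arrays at each age), each array as a point, and the group mean and SD in black. Every panel covers the same height in log2 units, so that the nearly level points of Atp5b can be set beside the 2 rises of Ndufs3 and Ndufa6, the peak of Ndufs7 at ED14.5, and the low points of Ndufs4, Sdhb and Cox5a at that age.

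The first question across age was how the complexes differ between the ED7.5 and the ED14.5 samples. In the control arm 18 members were higher at ED14.5 and 11 were lower, where 25.6% and 26.3% of all named genes were called in these directions. In the SL arm 17 members were higher and 12 lower, where 26.4% and 27.1% of all named genes were called. Called in both arms were 14 higher and 9 lower members of 84 (16.7% and 10.7%), smaller shares than the 21.5% and 22.9% of all genes. Complex I, with 35 members, made up 10 of the 14 higher (28.6% of its own) and 2 of the lower (5.71%). Complex IV, with 20 members, made up 6 of the 9 lower (30% of its own) and 1 of the higher (5%). Complex II had 1 in each direction, and complexes III and V had 1 higher each and none lower. The median difference was 0.16 and 0.23 over complex I in the control and SL arms, and -0.087 and -0.15 over complex IV. Over members above background on all arrays, mean complex I levels went from 9.53 to 9.69 in control and 9.61 to 9.77 in SL samples. Those of complex III rose as well, from 9.98 to 10.15 and 10.09 to 10.27. Complex V went from 10.81 to 10.92 and 10.92 to 10.98, and complex II from 9.95 to 9.92 and 10.00 to 9.92. Over all members the medians were 0.12 and 0.090, and over all genes 0.027 and 0.0070. The control median of all members was 0.065 without ED7.5 control replicate 2, and the SL median was 0.044 without ED14.5 SL replicate 1.

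These counts moved with the scaling of the arrays. Centring each array on the median of its named genes shifted the median difference of all genes at ED14.5 against ED7.5 to 0.203 in the control arm and 0.185 in the SL arm. The members called higher then numbered 41 and 38 in the 2 arms and those called lower 7 and 6. In both arms 34 were then higher and 6 lower. Complex I had 19 higher and 2 lower, complex II 1 higher, complex III 5 higher, complex IV 3 higher and 4 lower and complex V 6 higher. The medians then became 0.295 and 0.268 over all members, 0.33 and 0.41 over complex I, 0.25 and 0.26 over complex V, and 0.090 and 0.026 over complex IV. The lean of complex IV to lower values therefore turned with the scaling, while no called member named here changed the sign of its difference. Quantile normalisation gave medians of 0.16 and 0.14 over all members. Some members described below as not called in both arms were called there under other settings: Ndufs1 was higher at ED14.5 when centred, Uqcrc2 and Uqcrfs1 were higher at ED14.5 when centred or with an intensity trend, and Cox6b1 was lower there with the trend. Uqcrfs1 at ED14.5 and Sdha in liver were also higher with the trend, after quantile normalisation, in 1 fit of all 24 arrays and without the dimmest genes. The count of 14 higher members also depended on single arrays. It was 9 without ED7.5 control replicate 1 or replicate 2 and 8 without ED14.5 control replicate 2 or replicate 3. In the control arm alone the 18 were 8 to 10 without ED7.5 control replicate 1 or 2 or ED14.5 control replicate 2, 3 or 4. The 11 lower members were 7 without ED7.5 control replicate 3 or ED14.5 control replicate 3 or 4. In the SL arm the 17 were 11 without ED7.5 SL replicate 3.

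The second question was how the PD7.5 liver differs from the ED14.5 samples. The ED14.5 arrays enter both steps, so the steps are not independent, and the values of each are given side by side. In the control arm 22 members were higher in liver and 4 lower, where 20.5% and 24.6% of all named genes were called. In the SL arm 13 were higher and 7 lower, where 21.4% and 24.4% of all named genes were called. In both arms 12 were higher and 4 lower (14.3% and 4.76%), beside 16.6% and 20.4% of all genes. Of the 12, complex I held 6 (17.1% of its members). Complexes II, III and IV held 2 each (50%, 25% and 10%), while complex V held none in either direction. Of the 4 that were lower, 3 belonged to complex IV (15%) and 1 to complex I (2.86%). The median difference in the control and SL arms was 0.20 and 0.028 over complex I, 0.35 and 0.37 over complex II, 0.31 and 0.14 over complex III, 0.032 and -0.016 over complex IV, and 0.021 and -0.048 over complex V. Over all members it was 0.16 and 0.025, and over all genes -0.025 and 0.028. The direction of the SL median was not settled: it was 0.061 without ED14.5 SL replicate 1, 0.0076, -0.0022 and 0.0018 without ED14.5 SL replicate 2, 3 or 4, and -0.025 with arrays centred on their medians. Liver SL replicates 1 and 2, left out in turn, gave 0.038 and 0.015, quantile normalisation gave 0.045, and leaving out the dimmest genes gave 0.014. Centring gave 0.088 in the control arm. It also turned the medians of complex I in the SL arm, to -0.022, and of complexes IV and V in the control arm, to -0.039 and -0.049. Without liver control replicate 1 the control median of complex IV was -0.022, and without ED14.5 SL replicate 1 the SL medians of complexes IV and V were 0.051 and 0.022. Among the 75 members above background on all arrays, 22 were higher and 2 lower in the control arm, where the 7772 genes of that kind had 1859 higher and 3274 lower. The corresponding counts in the SL arm were 13 and 5, beside 1780 and 3336. The 12 were 6 without ED14.5 SL replicate 2 and 7 without ED14.5 SL replicate 3 or 4, and 7 with arrays centred on their medians. In the SL arm alone the 13 were 6 to 8 without those arrays, and the 7 lower members to 4 without ED14.5 SL replicate 1 or 4 or liver SL replicate 1, 2 or 4.

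**Figure D2:**
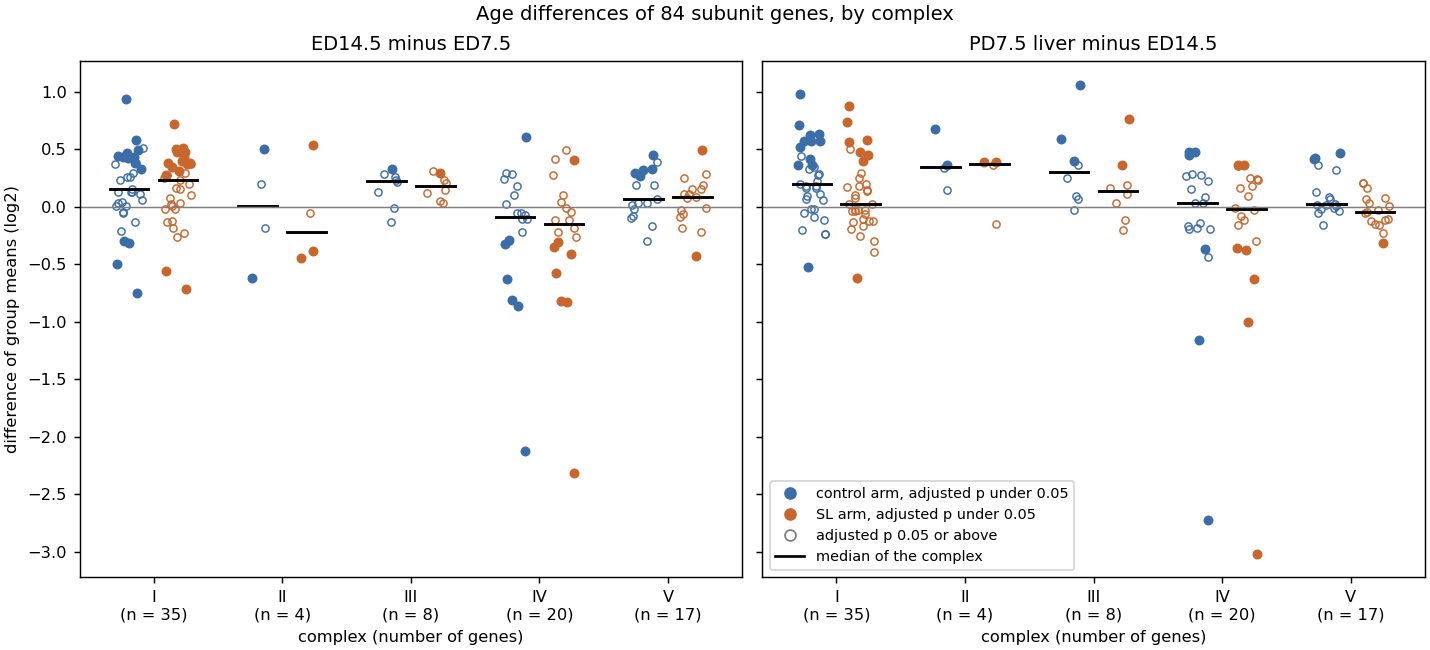
Difference in log2 intensity of each member between ages, by complex, with ED14.5 minus ED7.5 in one panel and PD7.5 liver minus ED14.5 in the other. Each point is a member in the control arm (blue) or SL arm (orange), filled where limma's adjusted p was under 0.05, and the black bars are medians. As deposited, complex I leans above 0 in the first step, where the mean level of complex III rose as well. The medians of complex V are close to 0 in both steps (0.25 and 0.26 in the first when arrays were centred on their medians). The isoforms Ndufa4l2 and Cox6b2 of complex IV lie far below the rest.

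The promoters of 6 members are shown because these genes carry the main patterns described next: Ndufs3 and Ndufa6 were higher at each step, Ndufs4, Sdhb and Cox5a were lower at ED14.5 and higher in liver, and Cox6b2 was lower in liver. Each is the reference sequence from 250 bases before to 50 bases after the gene's start, 5′ to 3′ on the gene's strand, from RefSeq on build GRCm38.p6. Capitals mark matches to 3 motifs bound by known regulators of respiratory genes, searched on both strands: GCGCANGCG for NRF1, CCGGAAG for ETS factors such as GABPA, and AAGATGGC for YY1, none of which overlap in these 6.
Ndufs3 (chr2:90904672-90904971, minus strand): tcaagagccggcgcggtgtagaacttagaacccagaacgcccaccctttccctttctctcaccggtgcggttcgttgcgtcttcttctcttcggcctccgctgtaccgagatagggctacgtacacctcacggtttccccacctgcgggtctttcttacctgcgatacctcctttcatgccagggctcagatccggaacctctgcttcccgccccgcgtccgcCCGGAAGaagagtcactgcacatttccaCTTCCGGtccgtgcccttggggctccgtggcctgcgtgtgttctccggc
Ndufa6 (chr15:82354242-82354541, minus strand): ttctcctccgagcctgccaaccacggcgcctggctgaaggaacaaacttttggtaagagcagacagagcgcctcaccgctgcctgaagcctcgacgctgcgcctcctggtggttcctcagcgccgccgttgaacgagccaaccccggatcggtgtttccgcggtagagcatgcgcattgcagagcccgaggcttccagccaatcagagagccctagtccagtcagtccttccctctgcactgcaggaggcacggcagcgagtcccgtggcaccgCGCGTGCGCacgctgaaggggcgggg
Ndufs4 (chr13:114388045-114388344, minus strand): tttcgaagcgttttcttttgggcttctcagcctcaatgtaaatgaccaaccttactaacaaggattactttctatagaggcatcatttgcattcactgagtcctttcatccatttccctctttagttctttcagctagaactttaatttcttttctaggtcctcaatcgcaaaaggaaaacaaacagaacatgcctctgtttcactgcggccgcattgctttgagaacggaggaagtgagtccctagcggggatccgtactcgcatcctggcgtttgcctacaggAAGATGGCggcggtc
Sdhb (chr4:140961021-140961320, plus strand): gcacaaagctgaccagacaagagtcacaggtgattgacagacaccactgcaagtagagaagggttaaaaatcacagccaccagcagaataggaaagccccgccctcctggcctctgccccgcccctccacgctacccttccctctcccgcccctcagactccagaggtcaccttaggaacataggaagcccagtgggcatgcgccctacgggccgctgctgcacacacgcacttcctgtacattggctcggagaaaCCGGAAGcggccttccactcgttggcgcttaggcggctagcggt
Cox5a (chr9:57520982-57521281, plus strand): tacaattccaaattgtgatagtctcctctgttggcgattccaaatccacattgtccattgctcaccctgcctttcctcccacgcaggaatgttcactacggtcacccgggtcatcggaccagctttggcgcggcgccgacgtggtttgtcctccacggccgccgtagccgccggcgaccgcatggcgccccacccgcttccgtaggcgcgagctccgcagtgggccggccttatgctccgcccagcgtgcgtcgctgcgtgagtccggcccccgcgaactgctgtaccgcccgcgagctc
Cox6b2 (chr7:4753045-4753344, minus strand): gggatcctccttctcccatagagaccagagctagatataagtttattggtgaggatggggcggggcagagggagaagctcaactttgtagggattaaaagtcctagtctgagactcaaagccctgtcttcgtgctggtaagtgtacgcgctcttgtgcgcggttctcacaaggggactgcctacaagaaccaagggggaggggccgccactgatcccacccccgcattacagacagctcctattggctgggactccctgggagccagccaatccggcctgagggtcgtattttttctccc
Ndufs3 held 2 ETS matches, Sdhb 1 ETS match, Ndufa6 1 NRF1 match and Ndufs4 1 YY1 match, and Cox5a and Cox6b2 held none of the 3. Promoters were at hand for 69 of the 84 members and for 15691 named genes. The NRF1 motif was in 19 of the 69 (27.5%) against 9.34% of all, the ETS motif in 16 (23.2%) against 12.2%, and the YY1 motif in 9 (13.0%) against 3.32%. By complex, the NRF1 motif was in 8 of 32 promoters of complex I, 2 of 3 of complex II, 2 of 5 of complex III, 1 of 14 of complex IV and 6 of 15 of complex V. The YY1 motif was in 7 promoters of complex I and 2 of complex V. Its letters include ATG, the codon that starts translation, so a match can also be the first codon of the protein. These are letter matches in a short window and say nothing of whether a factor binds there.

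Of the 10 members of complex I that were higher at ED14.5 in both arms, 5 were core subunits of its peripheral arm. That part of the complex takes electrons from NADH and holds the FMN and iron-sulfur clusters. The 5 were Ndufs3, Ndufs7, Ndufs8, Ndufv1 and Ndufv2, and the core subunit Ndufs1 was not called in either arm. Ndufs3, a core subunit of the peripheral arm, read 10.37, 10.21, 10.34 and 10.27 in control and 10.29, 10.50, 10.20 and 10.35 in SL samples at ED7.5. At ED14.5 it read 10.59, 10.69, 10.74 and 10.85 in control and 10.91, 10.71, 10.80 and 10.81 in SL samples. In liver it read 11.31, 11.26, 11.34 and 11.25 in control and 11.20, 11.43, 11.27 and 11.24 in SL samples. Each age lay wholly above the one before, and the control and SL arrays overlapped at every age. The rise at ED14.5 was 0.42 (SE 0.10, adjusted p = 0.00522) in the control arm and 0.47 (SE 0.10, adjusted p = 0.00252) in the SL arm, and the rise in liver was 0.57 (SE 0.10, adjusted p = 0.00131) and 0.48 (SE 0.11, adjusted p = 0.00537). Ndufa6, an accessory subunit, shared this course. It rose by 0.58 and 0.48 at ED14.5 and by 0.63 and 0.58 in liver in the control and SL arms (adjusted p 0.00100 to 0.00670).

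Ndufs7, a core subunit near the ubiquinone site, peaked at ED14.5. It read 9.55, 8.17, 8.94 and 9.16 in control and 9.37, 9.05, 9.26 and 8.96 in SL samples at ED7.5. It then read 9.74, 9.92, 9.93 and 9.98 in control and 9.99, 9.92, 9.92 and 9.69 in SL samples at ED14.5, and 9.52, 9.18, 9.49 and 9.28 and 9.55, 9.13, 8.92 and 9.45 in liver. Every ED14.5 array lay above every array of the other ages, and the lowest reading was the ED7.5 control replicate 2 array, whose background was the highest of all. The difference at ED14.5 was 0.94 (SE 0.25, adjusted p = 0.00899) in the control arm and 0.72 (SE 0.12, adjusted p = 0.000640) in the SL arm, and it ran from 0.68 to 1.14 in the control arm as single arrays were left out. In liver it was -0.53 (SE 0.12, adjusted p = 0.00524) and -0.62 (SE 0.16, adjusted p = 0.00922). Ndufv1, the subunit that binds NADH and FMN, was higher at ED14.5 by 0.43 and 0.52. The remaining core subunits Ndufs8 and Ndufv2 rose by 0.28 to 0.45, with calls that single arrays decided (adjusted p up to 0.0824). Ndufs8 lost its call without ED7.5 control replicate 1 or 2, any ED14.5 control array, ED7.5 SL replicate 1 or 3 or ED14.5 SL replicate 1 or 4, and its SL call also in 1 fit of all 24 arrays. Ndufv2 lost its call without ED7.5 control replicate 2 or 3, ED14.5 control replicate 2, 3 or 4 or ED7.5 SL replicate 3 or 4. Ndufs1, Ndufs3, Ndufs6, Ndufs8, Ndufv2, Ndufa11, Ndufa13 and Ndufb4 were picked once their values had been seen.

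Among the accessory subunits of complex I, which wrap the core and steady its assembly, some moved against the rest. Ndufs4, an accessory subunit needed for a stable NADH-oxidising arm, read 9.71, 9.68, 9.56 and 9.66 in control and 9.62, 9.76, 9.64 and 9.74 in SL samples at ED7.5. It read 8.88, 9.01, 8.81 and 8.91 in control and 9.06, 8.93, 8.93 and 8.97 in SL samples at ED14.5, and 9.52, 9.43, 9.56 and 9.40 and 9.47, 9.30, 9.36 and 9.55 in liver. All 8 ED14.5 arrays lay below all 16 others. The differences were -0.75 (SE 0.10, adjusted p = 7.90e-05) and -0.72 (SE 0.088, adjusted p = 6.93e-05) at ED14.5 and 0.58 (SE 0.10, adjusted p = 0.00111) and 0.45 (SE 0.11, adjusted p = 0.00745) in liver. Ndufa1, a small membrane subunit encoded on the X chromosome, took the same course, with -0.50 and -0.55 at ED14.5 (adjusted p = 0.0150 and 0.00164) and 0.98 and 0.88 in liver (adjusted p = 0.000238 and 0.000752). Its control arrays at ED7.5 and ED14.5 overlapped, at 7.72 to 8.31 and 7.46 to 7.76. Ndufs5, another accessory subunit, was higher in liver by 0.72 (SE 0.14, adjusted p = 0.00158) and 0.74 (SE 0.16, adjusted p = 0.00295) and was not called at ED14.5. Ndufs6, Ndufb10, Ndufa11 and Ndufb4 were higher at ED14.5 in both arms, by 0.35 to 0.50, and Ndufa13 was higher in liver by 0.52 and 0.56. Of these calls, those of Ndufb10 and Ndufb4 in the control arm were lost without any 1 of ED7.5 control replicates 1 and 2 and ED14.5 control replicates 2, 3 and 4, and that of Ndufb10 also without ED7.5 control replicate 3. Ndufb4 has a near-identical relative, Ndufb4b, whose signal may not be told apart from it. Ndufa11 lost its call without ED14.5 control replicate 3 or ED7.5 SL replicate 3, and Ndufa13 without ED14.5 SL replicate 2 or liver SL replicate 3.

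In complex II 1 catalytic and 1 anchor subunit moved in opposite directions at ED14.5. Sdhb, the iron-sulfur subunit that passes electrons from the flavin of Sdha to ubiquinone, read 10.75, 10.48, 10.52 and 10.80 in control and 10.40, 10.66, 10.60 and 10.62 in SL samples at ED7.5. It read 9.94, 10.05, 10.14 and 9.94 in control and 10.37, 10.08, 9.99 and 10.03 in SL samples at ED14.5, and 10.83, 10.64, 10.59 and 10.74 and 10.41, 10.62, 10.47 and 10.54 in liver. The ED14.5 arrays were the lowest in both arms, with no overlap within an arm. The differences were -0.62 (SE 0.11, adjusted p = 0.00104) and -0.45 (SE 0.11, adjusted p = 0.00791) at ED14.5, and 0.68 (SE 0.11, adjusted p = 0.000569) and 0.39 (SE 0.13, adjusted p = 0.0276) in liver. The call in the SL arm in liver was lost without ED14.5 SL replicate 2, 3 or 4 or liver SL replicate 2 or 4 (adjusted p up to 0.0806), and with arrays centred on their medians its SL calls at ED14.5 and in liver were both lost. Sdhd, a membrane anchor, went the other way at ED14.5, by 0.50 (SE 0.10, adjusted p = 0.00183) in the control arm and 0.54 (SE 0.11, adjusted p = 0.00229) in the SL arm. Its arrays read 10.46 to 10.68 and 10.59 to 10.90 at ED7.5 and 11.01 to 11.17 and 11.12 to 11.42 at ED14.5, without overlap. Sdhc, the other anchor, was lower at ED14.5 in the SL arm alone, at -0.38, and was not called there once arrays were centred on their medians or without ED7.5 SL replicate 2 or 3 or ED14.5 SL replicate 2 or 3. It was higher in liver by 0.36 and 0.39, and in the SL arm its call was lost without ED14.5 SL replicate 2, 3 or 4 or liver SL replicate 2 or 3 (adjusted p up to 0.0897) and with arrays centred on their medians. Sdha, the flavoprotein that oxidises succinate, was not called in either step.

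Complex III had 1 member called in both arms at ED14.5, a core protein, and 2 in liver, both small subunits. Uqcrq, a small subunit of the ubiquinone-binding side, read 9.59, 9.13, 9.80 and 9.94 in control and 9.76, 9.89, 9.72 and 9.82 in SL samples at ED7.5. It read 9.58, 9.91, 9.86 and 9.98 in control and 10.10, 10.04, 9.93 and 9.95 in SL samples at ED14.5, and 11.09, 10.83, 10.86 and 10.83 and 10.65, 10.92, 10.69 and 10.83 in liver. Every liver array lay above every array of the earlier ages. The rise in liver was 1.06 (SE 0.13, adjusted p = 7.44e-05) in the control arm, a 2.09-fold difference, and 0.77 (SE 0.11, adjusted p = 0.000311) in the SL arm. Uqcrb, another small subunit, was higher in liver by 0.40 and 0.36, and in the SL arm its call was lost without ED14.5 SL replicate 2, 3 or 4 or liver SL replicate 2 (adjusted p up to 0.0721) and with arrays centred on their medians. Uqcrc1, a core protein of the matrix side, was higher at ED14.5 by 0.33 and 0.30. Its call was lost without ED7.5 control replicate 1 or 2, ED14.5 control replicate 2 or 3 or ED7.5 SL replicate 3 (adjusted p up to 0.0770). The Rieske iron-sulfur protein Uqcrfs1 and the core protein Uqcrc2, looked up after the values were seen, were called in neither step.

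Complex IV held the largest differences of any complex, those of the isoforms Cox6b2 and Ndufa4l2. Among the subunits used in all tissues, Cox5a, which binds the core on the matrix side, read 10.50, 10.43, 10.53 and 10.59 in control and 10.55, 10.65, 10.51 and 10.63 in SL samples at ED7.5. It read 9.60, 9.80, 9.75 and 9.67 in control and 9.83, 9.76, 9.69 and 9.77 in SL samples at ED14.5, and 10.30, 10.19, 10.29 and 9.96 and 10.02, 10.33, 10.09 and 10.08 in liver. The ages did not overlap: ED7.5 was the highest and ED14.5 the lowest. The fall at ED14.5 was -0.81 (SE 0.10, adjusted p = 4.98e-05) and -0.82 (SE 0.088, adjusted p = 2.44e-05), and the rise in liver 0.48 (SE 0.12, adjusted p = 0.00751) and 0.37 (SE 0.12, adjusted p = 0.0256). Ndufa4 took the same course, with -0.63 and -0.57 at ED14.5 and 0.45 and 0.36 in liver. The liver calls of both in the SL arm were lost without ED14.5 SL replicate 2, 3 or 4, and that of Cox5a also without liver SL replicate 2 (adjusted p up to 0.0723). Both were also lost with arrays centred on their medians. Cox7a2l, which helps to join complexes III and IV into supercomplexes, was lower at ED14.5, at -0.87 (SE 0.15, adjusted p = 0.000557) and -0.83 (SE 0.087, adjusted p = 2.15e-05). Cox6a1 and Cox6c were lower at ED14.5 with smaller differences, -0.28 to -0.34, and were not called once arrays were centred on their medians. In the control arm both lost their calls without ED7.5 control replicate 1, 2 or 3 or ED14.5 control replicate 3 or 4, Cox6a1 also without ED14.5 control replicate 1 and Cox6c also without replicate 2. In the SL arm Cox6a1 lost its call without ED7.5 SL replicate 2, 3 or 4 or ED14.5 SL replicate 2 or 3, and Cox6c, chosen after its values were seen, without ED7.5 SL replicate 2 or ED14.5 SL replicate 4. Cox8a was lower in liver, at -0.36 and -0.63, and in the control arm this call was kept only without liver control replicate 3 among the 8 arrays left out in turn (adjusted p up to 0.114). It was also lower at ED14.5 in the SL arm alone, from -0.46 to -0.37 as single arrays were left out (adjusted p up to 0.025). With an intensity trend it was called lower there in both arms.

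Isoforms of complex IV named for other tissues were mostly near background. Cox7b2, a testis form, and Cox8b, a heart and muscle form, lay above background on no array, at 3.15 to 4.12 and 3.41 to 4.96. Cox4i2, the lung form that hypoxia can induce, and Cox8c, a testis form, each lay above background on 1 array. Cox7a1, a heart and muscle form, did so on 6 arrays, none of them from liver, and Cox6a2, another heart and muscle form, on 16 arrays, with readings of 5.68 to 6.51 over all 24. Beside them, 9 to 13 of the 14 heart and skeletal muscle markers were above background on no array of a group. The ubiquitous partners Cox4i1, Cox6a1, Cox6b1, Cox7a2, Cox7b and Cox8a lay above background on all 24 arrays. In liver Cox7a1 differed by -1.16 and -0.999 in log2 intensity (adjusted p = 0.000667 and 0.00123), with readings below background on all 8 liver arrays, so that this is a bound on a level and not a fold change.

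Cox6b2, a form of subunit 6b named for testis, was the exception. It read 8.54, 8.82, 9.17 and 8.33 in control and 8.83, 8.88, 8.76 and 8.75 in SL samples at ED7.5. It read 9.48, 9.68, 8.97 and 9.16 in control and 9.16, 9.11, 9.10 and 9.49 in SL samples at ED14.5, and 6.19, 7.25, 6.51 and 6.46 and 6.89, 6.13, 6.55 and 5.22 in liver. All 16 embryonic arrays were above background and above all 8 liver arrays, of which 4 control and 2 SL arrays were above background. The difference in liver was -2.72 (SE 0.24, adjusted p = 9.08e-06) in the control arm, 6.60-fold lower, and -3.02 (SE 0.31, adjusted p = 2.36e-05) in the SL arm, where no fold is given because 2 of the 4 liver arrays lay below background. At ED14.5 it was higher by 0.61 and 0.41. In the control arm those arrays overlapped, and the call was lost without ED7.5 control replicate 1 or 4 or ED14.5 control replicate 1 or 2 (adjusted p up to 0.0906). In 1 fit of all 24 arrays it was lost in both arms. Male germ cell markers read 3.62 to 4.09 over the arrays, with 6 or 7 of 7 above background on no array of a group. The somatic partner Cox6b1 was called in neither step, with group means between 10.27 ± 0.11 and 10.67 ± 0.088 (SD, n = 4).

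Ndufa4l2, a relative of Ndufa4 that hypoxia induces, was the other large difference. It read 8.28, 6.91, 7.37 and 7.49 in control and 7.66, 7.02, 7.43 and 7.01 in SL samples at ED7.5, and 5.17, 5.13, 5.81 and 5.44 and 5.34, 4.36, 4.92 and 5.25 at ED14.5. All 8 ED7.5 arrays were above background and none of the 8 at ED14.5 was. The difference was -2.13 (SE 0.27, adjusted p = 7.27e-05) in the control arm and -2.31 (SE 0.23, adjusted p = 1.62e-05) in the SL arm. Counting each dim array at its background or its own reading, whichever was higher, it was at least 2.61-fold and at least 2.28-fold lower. In liver 1 of 8 arrays was above background. Of a list of 15 hypoxia response genes, 11 were lower at ED14.5 in both arms, and 2 in the control arm and 1 in the SL arm were higher, with medians of -1.09 and -1.15. Of all named genes 26.3% and 27.1% were lower at this step in the control and SL arms, and 25.6% and 26.4% higher. In both arms 22.9% of all genes were lower. Among the hypoxia genes P4ha2, a prolyl hydroxylase of collagen, differed by -3.90 and -4.03, and Adm, the vasodilator peptide adrenomedullin, by -4.65 and -4.64. Decidua markers fell over the same step, 8 of 8 in both arms, and their part in these differences was not tested.

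**Figure D3:**
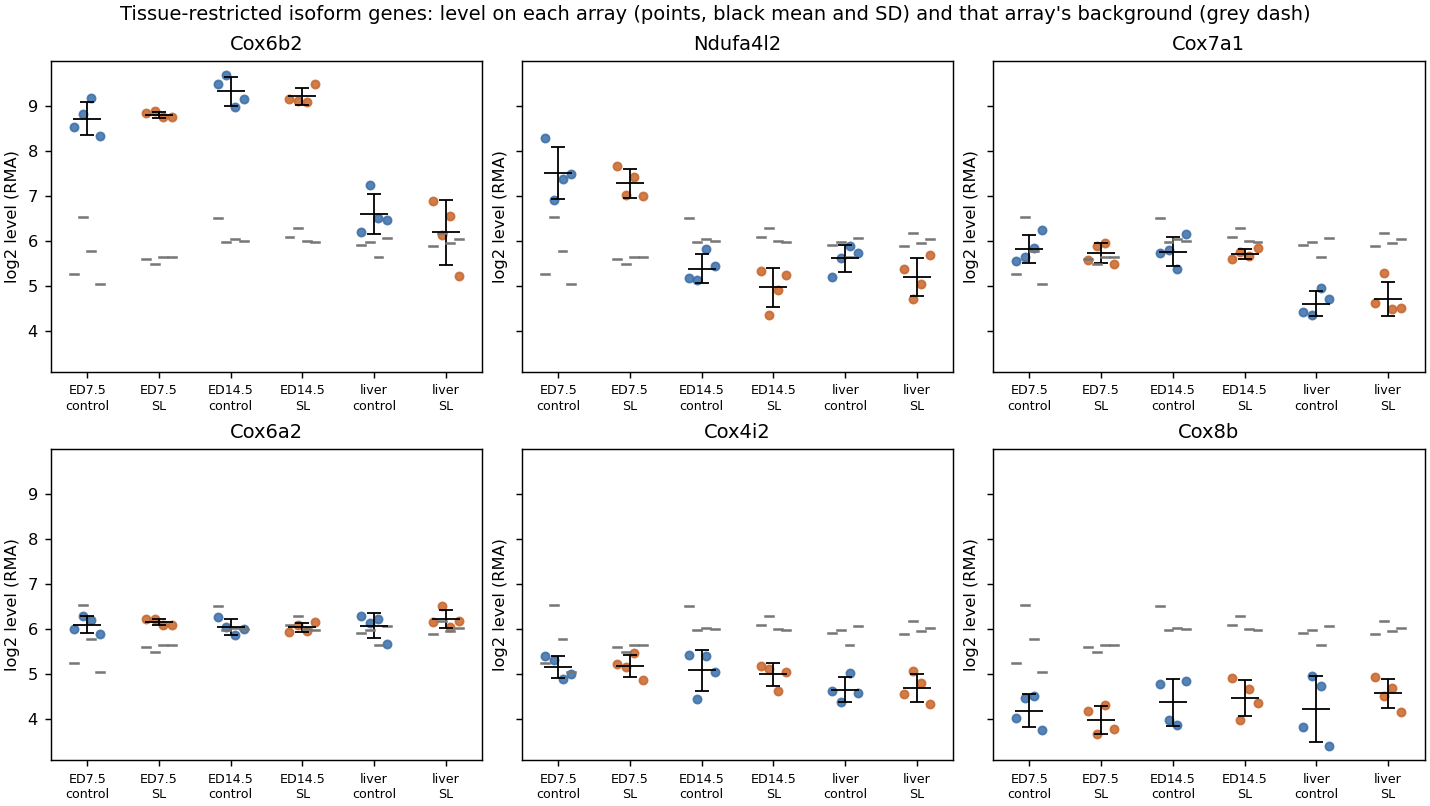
Log2 intensity of 6 isoform genes counted with complex IV on each array, by group, with the background of each array as a grey dash. Cox6b2 stands above background in the embryonic groups and drops in liver, Ndufa4l2 is above it at ED7.5, and Cox4i2, Cox6a2, Cox7a1 and Cox8b lie near or below it.

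In complex V the 17 members were all above background on all arrays, and 17 of 17 had spans under 1. Atp5pb, subunit b of the stator that holds the head still while the rotor turns, was called in both arms at ED14.5 under every setting and without any single array. In the fit used throughout, no other member of complex V was called in both arms, but other settings added some. With arrays centred on their medians Atp5g1, Atp5h, Atp5j2, Atp5l and Atp5o joined it at ED14.5. Atp5j2 also did so after quantile normalisation. With an intensity trend, in 1 fit of all 24 arrays or without the dimmest genes, Atp5j2 was higher and Atp5d lower at ED14.5. In liver Atp5j was higher with the trend or in 1 fit of all arrays, and Atp5g3 with the trend. Atp5pb read 10.76, 10.65, 10.91 and 10.76 in control and 10.79, 10.95, 10.83 and 10.74 in SL samples at ED7.5, and 11.15, 11.19, 11.26 and 11.27 and 11.51, 11.16, 11.29 and 11.31 at ED14.5. The ages did not overlap, and the difference was 0.45 (SE 0.10, adjusted p = 0.00342) in the control arm and 0.49 (SE 0.11, adjusted p = 0.00279) in the SL arm. In liver it read 11.10 to 11.33 and 11.16 to 11.24, which overlapped with ED14.5. In the control arm alone 4 others were called higher at ED14.5, Atp5g1, Atp5h, Atp5j2 and Atp5o, by 0.27 to 0.33, and in the SL arm alone Atp5d was lower, at -0.43. Atp5h, Atp5j2, Atp5o and Atp5d were picked once their values had been seen. The genes Atp5g1, Atp5g2 and Atp5g3 encode the same ring subunit c. Atp5g3 was higher in control liver by 0.41 (SE 0.10, adjusted p = 0.00850) with 0.21 in the SL arm (adjusted p = 0.153), and Atp5g1 was lower in SL liver, at -0.32 (SE 0.12, adjusted p = 0.0455) with -0.012 in the control arm (adjusted p = 0.946). Both calls of Atp5g1 were lost without almost any array: that at ED14.5 stayed only without ED7.5 control replicate 3 (adjusted p up to 0.107), and that in SL liver only without liver SL replicate 3 (adjusted p up to 0.104). Atp5g2 was called in neither step.

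Genes that build or serve the complexes were described from lists beside the subunits. The shares of all named genes called at ED14.5, 25.6% higher and 26.3% lower in the control arm and 26.4% and 27.1% in the SL arm, and in liver, 20.5% and 24.6% and then 21.4% and 24.4% are the background to each count that follows. Mitochondrial ribosome proteins, which make the subunits encoded in mitochondrial DNA, were higher at ED14.5 for 29 of 48 large subunit genes in the control arm and 33 in the SL arm, with 2 lower in each. Of 28 small subunit genes 14 and 17 were higher and 0 and 1 lower. In liver 15 and 23 of the 48 and 9 and 13 of the 28 were lower, with 4, 1, 1 and 1 higher. Assembly factors of complex IV were higher at ED14.5 for 10 and 12 of 22 genes and lower for 3 and 3. Lrpprc, which stabilises mitochondrial messenger RNA, rose by 1.20 and 1.24. Cox17, which delivers copper to complex IV, rose by 1.05 and 0.93 and then differed by -1.30 and -1.20 in liver. Complex I assembly factors were higher at ED14.5 for 3 and 9 of 16 genes and lower for 0 and 1. Of 16 citric acid cycle enzymes 4 and 4 were higher and 4 and 5 lower at ED14.5, and 5 and 5 higher and 7 and 8 lower in liver. Cs, citrate synthase, differed in liver by -1.35 and -1.54. Etfdh, which passes electrons from fatty acid oxidation to ubiquinone, was higher in liver by 1.6 and 1.4. Other electron carriers had 3 and 4 of 9 higher and 2 and 2 lower at ED14.5, and 3 and 3 higher and 1 and 1 lower in liver. The adenine nucleotide and phosphate carriers, which feed complex V, had 1 and 1 of 9 higher and 4 and 3 lower at ED14.5. Slc25a4, an ADP and ATP exchanger, differed there by -0.69 and -0.47. Assembly factors of complex V had 3 and 3 of 6 higher at ED14.5 and none called in liver, those of complex III had 1 of 6 in each direction at ED14.5 in both arms, and those of complex II had none of 4 called at ED14.5. Of 4 uncoupling proteins, which let protons leak back, 0 and 2 were lower at ED14.5 and none was higher.

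Regulators of mitochondrial gene expression moved in differing directions. Of 17 named on the array, 9 were higher and 4 lower at ED14.5 in the control arm and 7 and 3 in the SL arm, and in liver 6 and 5 and then 6 and 3. Of all named genes 25.6% were higher and 26.3% lower at ED14.5 in the control arm and 26.4% and 27.1% in the SL arm, beside 20.5% and 24.6% and then 21.4% and 24.4% in liver. Ppargc1a, the coactivator that drives mitochondrial biogenesis, was below background at ED7.5 and higher at ED14.5 by at least 5.90-fold in the control arm and at least 5.42-fold in the SL arm, and by 0.82 and 1.07 more on the log2 scale in liver. Its relative Ppargc1b was lower at ED14.5, at -1.85 and -1.79, and Pprc1, the third of the family, was higher at ED14.5 in the control arm, by 0.74, and differed by -1.13 and -1.38 in liver. Nrf1, whose motif was searched above, was higher at ED14.5 by 1.27 and 1.54 and lower in liver, at -1.26 and -1.72. Gabpb1, the partner of the ETS factor Gabpa, did likewise, with 0.76 and 0.96 and then -1.08 and -1.35, while Gabpa was called in neither step. Tfam, which packages and transcribes mitochondrial DNA, rose by 0.98 and 1.15 at ED14.5. Tfb1m, a methylase of mitochondrial ribosomal RNA, rose by 0.50 and 0.31. Tfb2m, a factor that starts mitochondrial transcription, differed by -0.69 at ED14.5 and 0.59 in liver in the control arm alone, and the mitochondrial RNA polymerase Polrmt was not called.

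Among the hormone and oxygen sensors in this list, Ppara, the fatty acid receptor of liver, was below background at ED7.5, higher at ED14.5 by at least 6.63-fold and at least 6.32-fold, and higher again in liver by 3.02 and 3.13. Thrb, a thyroid hormone receptor, rose by 2.19 and 1.73 and then 2.01 and 2.39. Hif1a, a hypoxia factor, was lower at ED14.5, at -1.42 and -1.35 and was higher in SL liver by 0.34. Epas1, its relative, fell at ED14.5, with -4.11 and -4.10, and rose in liver, with 2.39 and 2.44. Yy1 was called only in control liver, at -0.36. Esrrg was below background on the embryonic arrays and higher in liver by at least 1.29-fold and at least 1.31-fold, Esrrb was below background in both steps, and Esrra is not named on the array.

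The remaining question was whether descent from obese grandfathers moved the subunits at a given age. No member was called in any of the 3 comparisons of SL with control by limma. Of all named genes 0.00513% were called at ED7.5, 0.0513% at ED14.5 and 0% in liver. At an unadjusted p under 0.05, 0 members were higher and 0 lower at ED7.5, 1 higher and 0 lower at ED14.5 (Ndufv3), and 1 higher and 1 lower in liver (Cox8c and Ndufb10). All named genes had 547 higher and 523 lower at ED7.5, 1090 and 1133 at ED14.5, and 836 and 707 in liver at that level. Over 15 settings each, the lowest adjusted p of a member was 0.738 at ED7.5, 0.268 at ED14.5 and 0.197 in liver. No gene of the lists of assembly factors, carriers, ribosome proteins, enzymes or regulators was called in these comparisons either.

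The direction of the small differences was uneven. At ED7.5, 69 of 84 members lay above 0 with a median of 0.086, while 9858 of 19505 genes did so with a median of 0.0020. At ED14.5 it was 64 of 84 with a median of 0.071, beside 9754 genes and a median of 7.78e-05. In liver 22 of 84 lay above 0 with a median of -0.064, beside 9896 genes and a median of 0.0034. Among the genes above background on all arrays, 65, 61 and 15 of the 75 members lay above 0 at the 3 ages, and the 7772 genes had medians of -0.0028, 0.0045 and -0.032. These shifts rested in part on single arrays. Without ED7.5 control replicate 2 the median at ED7.5 was 0.038, with 58 members above 0, and without ED7.5 SL replicate 2 it was 0.049, with 66. Without ED14.5 SL replicate 1 the median at ED14.5 was 0.017, with 48 above 0, and without ED14.5 control replicate 1 it was 0.042, with 60. Without liver control replicate 1 the median in liver was -0.031, with 34 above 0, and without liver control replicate 4 it was -0.105, with 19. Centring on array medians gave -0.038 in liver, with 28 above 0.

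The mean over the 75 members on each array shows which arrays these were. At ED7.5 it was 9.96 to 10.26 in control and 10.18 to 10.35 in SL samples, and the lowest was control replicate 2. At ED14.5 it was 10.14 to 10.29 in control and 10.25 to 10.48 in SL samples, with control replicate 1 the lowest and SL replicate 1 the highest. In liver it was 10.36 to 10.55 in control and 10.32 to 10.42 in SL samples. The groups overlapped at each age. Taken by complex, the 4 members of complex II were the only set whose groups did not overlap, in liver, at 10.25 to 10.33 in control and 10.10 to 10.21 in SL samples. The separation of exon from intron control probe sets, a measure of array quality that is 1 when all exon controls are brighter, was 0.867 on ED7.5 control replicate 2 and 0.932 to 0.939 on the ED7.5 SL arrays. In liver it was 0.906 to 0.920 in control and 0.897 to 0.904 in SL samples, without overlap. Liver cell type markers leaned in 1 direction within each type below, with array means that overlapped for erythroid and granulocyte but not Kupffer cell markers. Erythroid markers read 9.36 to 10.15 in control and 8.07 to 9.78 in SL liver as array means, with 0 of 5 above 0, Kupffer cell markers 9.22 to 9.40 and 8.89 to 9.13, with 7 of 7 below 0, and granulocyte markers 8.76 to 9.65 and 9.57 to 9.75, with 7 of 7 above 0. None of these markers was called in liver. At ED14.5 the array means of neuron markers read 4.28 to 4.49 in control and 4.63 to 4.875 in SL samples. Of those 6 markers, 4 lay above background on no array of either group. The part of cell types and of array quality in the shift of the members was not tested.

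**Figure D4:**
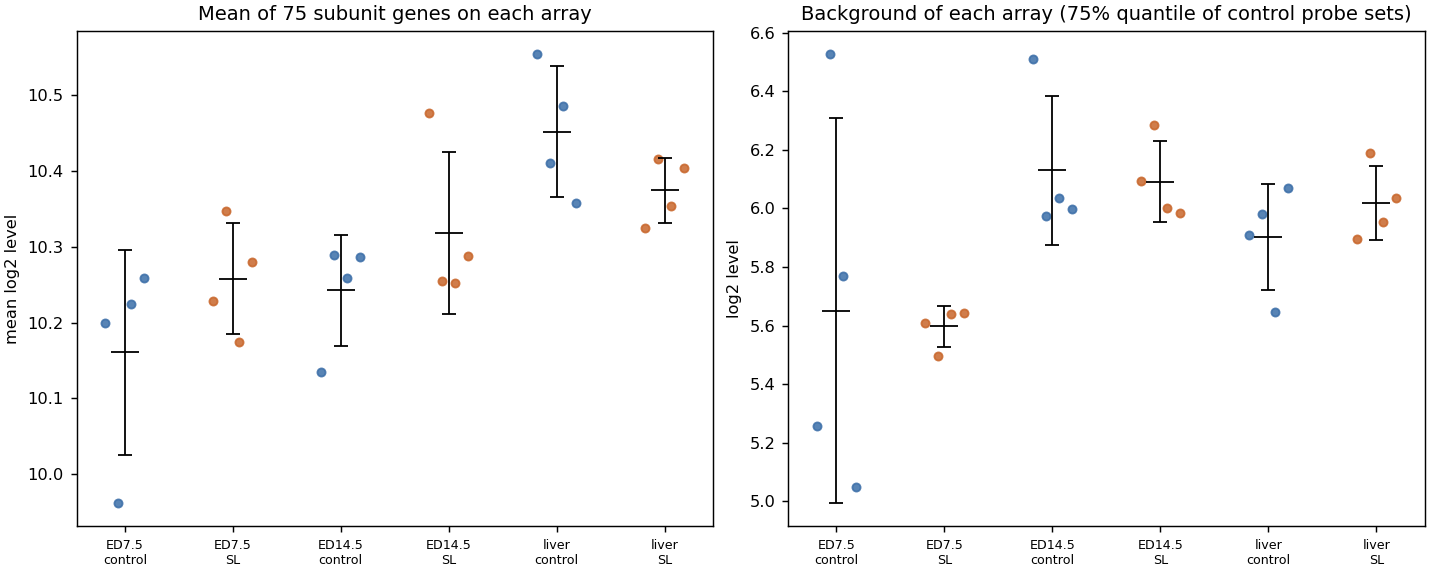
Mean log2 intensity of the 75 members above background on all arrays, and the background level, in log2 units on each array by group, with the group mean and SD as black bars. The lowest member mean belongs to ED7.5 control replicate 2, at 9.96, which has the highest background, and ED14.5 SL replicate 1 stands above the other SL arrays of its age at 10.48.

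Members whose SL and control arrays did not overlap were few. At ED7.5 there were 2 higher and 0 lower, where 1.56% of all named genes were higher without overlap and 1.48% lower. At ED14.5 there were 1 and 0, where the background was 3.71% and 4.27%, and in liver 0 and 5, where it was 2.13% and 2.3%. At ED7.5 Cox7b, an X-linked subunit of complex IV, read 11.10, 10.82, 11.23 and 11.17 in control and 11.51, 11.26, 11.36 and 11.23 in SL samples. The lowest SL array touched the highest control array to 2 decimals, and the difference was 0.26 (SE 0.12, adjusted p = 0.913). The other was the testis form Cox8c, below background on 7 of 8 arrays. At ED14.5 Ndufv1 read 10.64, 10.70, 10.76 and 10.82 in control and 10.99, 10.86, 10.83 and 10.88 in SL samples, a difference of 0.16 (SE 0.089, adjusted p = 0.535). The SL arrays sat just above the control arrays. Ndufv3, an accessory subunit beside Ndufv1, read 6.72, 7.09, 6.99 and 7.09 and 7.42, 6.99, 7.43 and 7.40 and differed by 0.33 (SE 0.14, adjusted p = 0.395). SL replicate 2 lay among the control arrays. By the same ranking of p-values, Cox7a2 and Uqcr11, small subunits of complexes IV and III, differed by 0.25 (SE 0.13, adjusted p = 0.945) and 0.27 (SE 0.15, adjusted p = 0.954) at ED7.5, and Atp5l, a membrane subunit of complex V, by 0.23 (SE 0.13, adjusted p = 0.533) at ED14.5. Cox7b differed there by 0.38 (SE 0.17, adjusted p = 0.440), with SL readings of 12.08, 11.43, 12.05 and 11.45 and control readings of 11.28 to 11.51. The arrays of these 4 overlapped. As single arrays were left out, Uqcr11 ran from 0.12 to 0.36 and Cox7a2 from 0.17 to 0.33 at ED7.5, Cox7b from 0.17 to 0.31 at ED7.5 and from 0.27 to 0.48 at ED14.5, and Atp5l from 0.13 to 0.28 at ED14.5.

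In liver the 5 members below control without overlap were Ndufb10 and Ndufv3 of complex I, Sdhd of complex II, and Atp5g1 and Atp5g2 of complex V. Ndufb10, an accessory subunit of the proton-pumping arm, read 9.40, 9.51, 9.31 and 9.41 in control and 8.90, 9.21, 9.12 and 9.16 in SL samples, a difference of -0.31 (SE 0.12, adjusted p = 0.623). All 4 SL arrays lay below all 4 control arrays. Ndufv3 read 7.49, 7.60, 7.56 and 7.55 in control and 7.05, 7.31, 7.45 and 7.30 in SL samples, a difference of -0.27 (SE 0.13, adjusted p = 0.643). Atp5g1 read 11.49, 11.28, 11.50 and 11.28 in control and 11.05, 11.09, 11.25 and 11.09 in SL samples, a difference of -0.27 (SE 0.12, adjusted p = 0.637). In both genes SL replicate 3 came closest to the control arrays. Sdhd and Atp5g2 differed by -0.15 (SE 0.11, adjusted p = 0.768) and -0.19 (SE 0.13, adjusted p = 0.743). Ndufa8, an accessory subunit with overlapping arrays (10.58 to 10.98 in control and 10.31 to 10.61 in SL samples), differed by -0.30 (SE 0.14, adjusted p = 0.635).

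**Figure D5:**
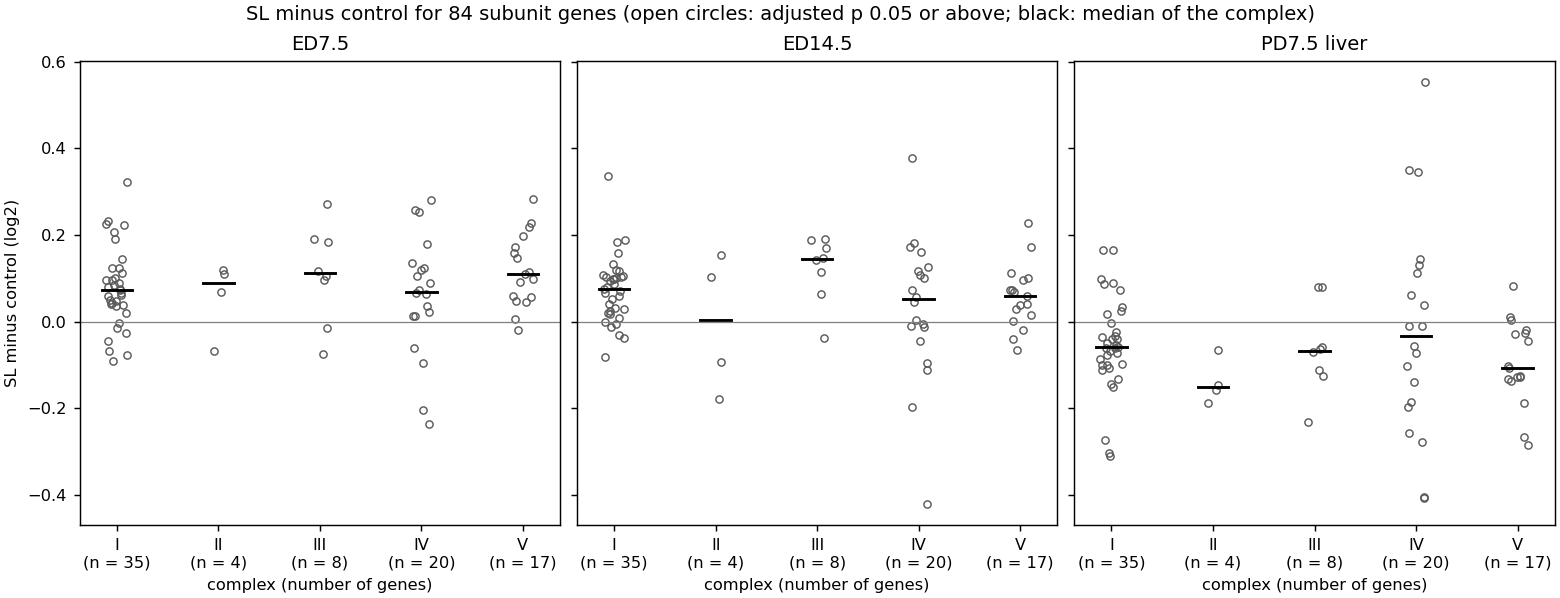
SL minus control in log2 intensity for each member, by complex, at ED7.5, at ED14.5 and in PD7.5 liver, with the median of each complex in black. Open circles are members with an adjusted p of 0.05 or more, which is every member at each age, and most lie above 0 at both embryonic ages and below 0 in liver.

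Whether the difference of SL from control itself changed with age was tested as an interaction, and no member was called. Of all named genes 0.0769% were called for ED14.5 against ED7.5, 0.0256% for liver against ED14.5 and 0.00513% for liver against ED7.5. At an unadjusted p under 0.05 the members numbered 0 higher and 0 lower, 0 higher and 8 lower, and 0 higher and 8 lower in these tests. All named genes had 676 higher and 673 lower, 1047 and 1021, and 862 and 931. Atp5g1 had an interaction of -0.49 (SE 0.15, adjusted p = 0.315) for liver against ED7.5, where its SL arrays read 11.31, 11.28, 11.25 and 11.30 and its control arrays 11.01, 10.78, 11.30 and 11.17 at ED7.5. Without ED7.5 control replicate 2 it was -0.39 (SE 0.14, adjusted p = 0.530). Ndufv3 had -0.61 (SE 0.20, adjusted p = 0.281) for liver against ED14.5, since its SL arrays lay mostly above control at ED14.5 and below it in liver.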

How the data were processed

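Total RNA from 24 samples was extracted with Trizol and labelled with biotin by an Affymetrix protocol, per the labels' protocols. The deposited values are log2 probe set intensities, summarised and normalised by RMA with the oligo package, per the submitters' processing notes (versions not given in the sources used here). No reads or counts underlie an array, and the number of arrays limits the precision.

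Probe sets naming 1 gene were kept, the brightest for each gene, giving 19505 named genes. A gene's background on an array was the 75% quantile of the intron control probe sets. Each comparison of 4 against 4 arrays was fitted with limma 3.58.1 (lmFit and eBayes, R 4.3.3, data.table at 1.17.8) on its own arrays, with p-values adjusted by Benjamini-Hochberg over all named genes. Interactions used all 24 arrays. The fit was tested on simulated data in which genes varied independently and the planted differences were a doubling or more. It therefore does not tell how often smaller differences, as most members had, would be called. Alternatives were an intensity trend with a robust prior, 1 fit of all arrays, a replicate block, quantile normalisation, a filter that dropped the dimmest 33% of genes, centring on array medians, the mean of probe sets, and leaving out each array. Counts in both arms, counts of members above 0, and the settings for medians by complex and for 2 interactions were chosen after seeing the data.

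The members, lists and tests were chosen with earlier results of these data known. Genes were named by rule. In each SL comparison these were the called members or the 5 with the smallest p. Each age step gave the 2 largest changes in each direction per complex, among members called in both arms whose groups did not overlap. Added to them were isoform partners, the 2 genes with the smallest p of a list, all regulators, and members never above background. Others are said to be chosen after their values were seen. Promoters came from RefSeq, build GRCm38.p6. Per-array markers of cell types were fixed as lists of genes.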

Additional observations from a re-analysis of the deposited data

Results flagged for a closer look

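In groups of 4 arrays, 11 of 260 pairs of a gene or member mean with a group had 1 array whose gap to the nearest other divided by the group's range exceeded Dixon's 95% critical value, where chance gives about 1 in 20. ED14.5 SL replicate 1 was far from the rest for 3 of them: Cox4i1 read 10.82 there against 10.43 to 10.44 on the other arrays, Ndufa1 read 7.72 against 7.53 to 7.55, and the mean of the 75 members was 10.48 against 10.25 to 10.29. Liver control replicate 1 was far for 2: Ndufa6 read 10.63 against 10.01 to 10.11, and Uqcrq read 11.09 against 10.83 to 10.86. In ED14.5 SL samples Cox6b2 read 9.49 on replicate 4 against 9.10 to 9.16, and Ndufv3 read 6.99 on replicate 2 against 7.40 to 7.43. In ED14.5 control samples Cox8a read 11.62 on replicate 2 against 11.35 to 11.36, and Ndufb4 read 9.89 on replicate 1 against 10.12 to 10.16. Cox6c read 11.67 on liver SL replicate 4 against 11.91 to 11.94. Cox8c read 5.71 on ED7.5 SL replicate 2 against 5.07 to 5.16, where the other arrays were below background. The causes were not tested.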

How the results depend on the processing

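No member was called for SL against control, or for the interaction of SL with age, under any setting run. At ED14.5 against ED7.5 the control arm had 18 higher and 11 lower members, which became 28 higher with an intensity trend and robust prior, and 41 higher and 7 lower with arrays centred on their medians. As single arrays were left out they ranged from 8 to 19 and from 7 to 11. The SL arm's 17 and 12 became 27 higher with the trend and 38 higher and 6 lower when centred, and ranged from 11 to 20 and from 9 to 16. In liver the SL arm's 13 higher members became 20 with the trend and 8 when centred, and ranged from 6 to 15, and its 7 lower members ranged from 4 to 6. In both arms the 14 higher at ED14.5 became 23 with the trend and 34 when centred, and ranged from 8 to 14. The 12 higher in liver became 20 and 7, and ranged from 6 to 13. The members above 0 in liver for SL ranged from 16 to 34. Single members were followed under other settings because they were called at an age step or ranked among the smallest p in an SL comparison. No SL value was called at the outset, so none of these could lose a call. The counts that follow rest in part on this choice and do not describe all members. Of 1500 values of the members so chosen, 1350 kept their direction and their side of the threshold, 150 lost the call and none changed direction. The causes were not tested.

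Samples share replicate numbers, and no pairing by number was seen: over 28 pairs the correlation of deviations ran from -0.165 to 0.116, and 1 was over 0.1. With 4 arrays in a group, a weak pairing could go unseen. In fits blocked by replicate number, the control arm at ED14.5 had 11 higher and 7 lower members, and the SL arm in liver had 7 higher and 4 lower. The block left 7 members higher in liver in both arms. Genes near background on an array, such as Cox7a1, Cox8b and Ndufa4l2 at ED14.5, have only a bound there.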
